A study of Mus musculus with 8 samples.

Results

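The cytosolic ribosomal protein (RP) genes, which encode the protein part of the ribosomes that translate nuclear mRNAs, were followed through total RNA-seq of mouse embryonic stem cells (ESCs). A gene was a member when its annotation was protein coding and its symbol consisted of Rpl or Rps, with or without a p, a number and at most a final a, x or y, or was *Rpsa*; *Rpl22* was left out. Of 55401 genes in the files, 75 met this rule, 45 of them for the large (60S) and 30 for the small (40S) subunit, and all 75 had reads in every library and entered the tests. The rule used names and no measured value.

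The study examined mouse ESCs that lacked ZZZ3 or YEATS2, subunits of the ATAC coactivator complex, which holds a histone acetyltransferase. There were 2 libraries labelled Control, 3 labelled Zzz3_auxin and 3 labelled Yeats2_auxin. In Zzz3_auxin and Yeats2_auxin, *Zzz3* or *Yeats2* was fused to the auxin-inducible degron (AID), a tag that sends the protein to the proteasome when auxin is present and the rice F-box protein Tir1 is expressed. Auxin was applied at 500 µM for 24 h. All cells were kept in FCS, LIF and 2i (inhibitors of the MEK and GSK3b kinases) and, per the labels, in G418 to select for Tir1. The labels give neither the line of the Control cells nor whether they received auxin or its solvent, so depletion, auxin exposure and line cannot be told apart in any comparison with Control. They also do not say that replicates were separate cultures, so P values measure the spread between these libraries, which may be technical.

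A ribosome contains a single copy of nearly every RP, and cells make the many proteins in matched amounts. Vertebrate RP mRNAs typically start with a terminal oligopyrimidine (TOP) tract, a C followed by a run of pyrimidines, through which mTOR and LARP1 control their translation and stability together. RP genes are short and highly transcribed, many carry small nucleolar RNAs (snoRNAs) in their introns, and their mRNAs have been copied back into the genome many times as processed pseudogenes. Dividing stem cells devote much of their transcription to ribosomes.

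The starts of some RP genes are shown to give a view of the TOP tract that defines these mRNAs, in members that were low and members that were not low after auxin. Each window is 30 bases of the sense strand, 10 before and 20 from the annotated start, taken from RefSeq (GRCm38.p6). Capitals mark a C at the annotated start and the unbroken run of pyrimidines that follows it. The first 4 belong to the members with this tract and the lowest log2 fold changes (FCs) in Zzz3_auxin. The next 4 belong to those with the highest. The final 3, without capitals, belong to the members called lower in both auxin groups, whose RefSeq starts did not open with such a tract. In *Rps24* a run of this kind begins just before the annotated start, and another annotated start of this gene is not shown. A window without capitals therefore does not mean that the mRNA lacks the tract.
Rps15a: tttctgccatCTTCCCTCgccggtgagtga
Rpl35a: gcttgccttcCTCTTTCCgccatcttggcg
Rpl15: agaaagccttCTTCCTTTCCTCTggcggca
Rps18: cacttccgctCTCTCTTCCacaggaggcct
Rps21: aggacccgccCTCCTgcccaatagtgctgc
Rps27: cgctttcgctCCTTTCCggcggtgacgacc
Rpl14: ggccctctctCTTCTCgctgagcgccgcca
Rplp2: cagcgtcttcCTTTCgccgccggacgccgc
Rpl13: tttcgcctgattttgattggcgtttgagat
Rpl26: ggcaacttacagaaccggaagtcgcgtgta
Rps24: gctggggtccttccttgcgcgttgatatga

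These windows lie, with their strand, in *Rps15a* at chr7:118116128-118116157 (minus), *Rpl35a* at chr16:33056472-33056501 (plus), *Rpl15* at chr14:18270967-18270996 (minus), *Rps18* at chr17:33955646-33955675 (minus), *Rps21* at chr2:180257369-180257398 (plus), *Rps27* at chr3:90213629-90213658 (minus), *Rpl14* at chr9:120571507-120571536 (plus), *Rplp2* at chr7:141447641-141447670 (plus), *Rpl13* at chr8:123102340-123102369 (plus), *Rpl26* at chr11:68901556-68901585 (plus) and *Rps24* at chr14:24490668-24490697 (plus). Of the 75 members, 55 had a RefSeq entry, with 64 start windows between them. A C followed by at least 4 pyrimidines lay exactly at the start in 13 of the 64 windows, or 20.3%, against 823 of all 32851 windows in the table, or 2.51%. Within 20 bases to either side of the start, on the sense strand only, it was present in 49 of 64 member windows (76.6%) and in 16230 of all windows (49.4%). The median log2 FC in Zzz3_auxin was -0.50 for the 13 members with the tract at the start and -0.51 for the other members with an entry, and in Yeats2_auxin it was -0.47 and -0.42. Members with the tract at the start ranged from -1.05 to 0.54 in Zzz3_auxin, so these letters exactly at the start did not separate low from high members. The 45 members with the tract within 20 bases of the start had medians of -0.50 in Zzz3_auxin and -0.41 in Yeats2_auxin. The other members with an entry had -0.67 and -0.53.

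Between 14315120 (Zzz3_auxin replicate 3) and 27884704 (Yeats2_auxin replicate 2) reads per library were assigned to genes. All 10 ESC marker genes were detected, with a summed level of 5842 to 6036 CPM (counts scaled to a common library size) in Control, 5145 to 5869 in Zzz3_auxin and 5373 to 5996 in Yeats2_auxin. *Zzz3* mRNA had 182 to 186 CPM in Control and 77.5 to 112 in Zzz3_auxin, and *Yeats2* mRNA 90.9 to 95.8 in Control and 43.7 to 103 in Yeats2_auxin. The degron acts on the protein, so these mRNA levels do not measure the depletion. The markers of other cell states are given with the related gene lists further on.

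The share of assigned reads that fell on the members was 1.92% and 2.38% in Control replicates 1 and 2, 1.42%, 1.74% and 2.21% in Zzz3_auxin and 1.69%, 2.01% and 1.61% in Yeats2_auxin, so Control replicate 1 lay below Zzz3_auxin replicate 3 and Yeats2_auxin replicate 2 and the groups overlapped. Alignments to more than a single place, which the counting discarded, numbered 1.40 and 1.62 per assigned read in Control, 1.25, 1.38 and 1.65 in Zzz3_auxin and 1.36, 1.52 and 1.36 in Yeats2_auxin. The 8 libraries stood in the same order in both measures except for Control replicate 2 and Zzz3_auxin replicate 3 at the top, which changed places; the part of such alignments in the members' levels was not tested. In bulk RNA, fewer cells with a transcript and less of it per cell cannot be told apart.

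Counted levels within the family were far apart. Scaled by exon length, those with high levels included *Rpl4* with 1388 CPM per kb, *Rpl8* with 881 and the stalk gene *Rplp1* with 544 among 60S members, and *Rps15* with 558 and *Rps3* with 371 among 40S members. Those with low levels included *Rpl29* with 1.11, *Rpl36* with 2.04 and *Rpl24* with 2.11 CPM per kb, and *Rps6* with 3.85 and *Rps16* with 6.02. The mature ribosome holds these proteins in nearly equal number. However, only uniquely aligned reads were counted, and members that share more sequence with other genes had lower counted levels. Over the 75 members, Pearson's r between the shared fraction, defined further on, and the log2 level per kb was -0.69. The part of discarded reads in the spread of levels was not tested, so the spread of the transcripts themselves is not known. The lowest count of any member in any library was 9 reads, for *Rpl36*, and the highest was 84294, for *Rpl4*. *Rpl36* (9 to 27 reads) and *Rpl38* (17 to 65 reads) therefore carry a large counting error, and a fall of either could be detected only if large.

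Zzz3_auxin was compared with Control to ask how RP transcripts respond to the loss of ZZZ3. Most RP genes had lower counted levels: 62 of 75 had a log2 FC below 0, where 48.9% of all 17532 genes tested did, and the median was -0.51 against 0.01 over all genes. The 10 members with a shared fraction under 10%, given further on, had a median of 0.01. The quartiles of the members were -0.76 and -0.14. Of the members, 7 were called lower and 0 higher at an adjusted P below 0.05 (edgeR's quasi-likelihood test with Benjamini-Hochberg adjustment), where 0.257% of all genes were called lower. Among the 7 were *Rpl13*, *Rpl15*, *Rpl26*, *Rpl31*, *Rpl39* and *Rps24*. At an unadjusted P below 0.05, 42 members were lower and 0 higher, against 10.1% of all genes lower. In 40 members every Zzz3_auxin library lay below both controls, against 18.9% of all genes. DESeq2 called 30 members lower and 0 higher, among 1079 genes in either direction (6.15% of all genes, against 132 with edgeR).

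The number of called members depended on single libraries, as did the number of called genes. Leaving out Zzz3_auxin replicate 2 gave 25 members among 841 genes called in either direction, leaving out replicate 3 gave 14 among 293, and leaving out replicate 1 gave 1 among 14, where the fit of all libraries gave 7 among 132. Without Control replicate 1, Control replicate 2 or Yeats2_auxin replicate 1 there were 0 members among 0, 0 and 3 genes, without Yeats2_auxin replicate 2 there were 3 among 28 and without replicate 3 there was 1 among 12; the Yeats2_auxin libraries enter because the fit estimates the spread from all 8. Over these 8 fits the median of the members stayed between -0.57 and -0.37. With a control left out, the remaining control was assumed to vary like the other groups.

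The same question for YEATS2 was addressed by comparing Yeats2_auxin with Control. Again 63 of 75 members had a log2 FC below 0, where 51.1% of all genes did, and the median was -0.37 against -0.01. The members ranged from -1.16 to 0.57, with quartiles at -0.62 and -0.14. The members called lower were *Rpl13*, *Rpl26* and *Rps24*, 3 of 75, where 0.114% of all genes were called lower, and 0 were called higher. At an unadjusted P below 0.05, 31 members were lower and 0 higher, against 6.98% of all genes lower. All Yeats2_auxin libraries lay below both controls in 40 members, against 21.0% of all genes. DESeq2 called 13 members lower and 0 higher, among 398 genes in either direction (2.27% of all genes, against 78 with edgeR). There were 11 members called among 134 genes without Zzz3_auxin replicate 1 and 8 among 217 without Zzz3_auxin replicate 3. Without either control or any single Yeats2_auxin library there were 0, with 0 to 4 genes called, while the median stayed between -0.50 and -0.30. Both comparisons use the same 2 controls, so a library effect in the controls enters both.

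**Figure D1:**
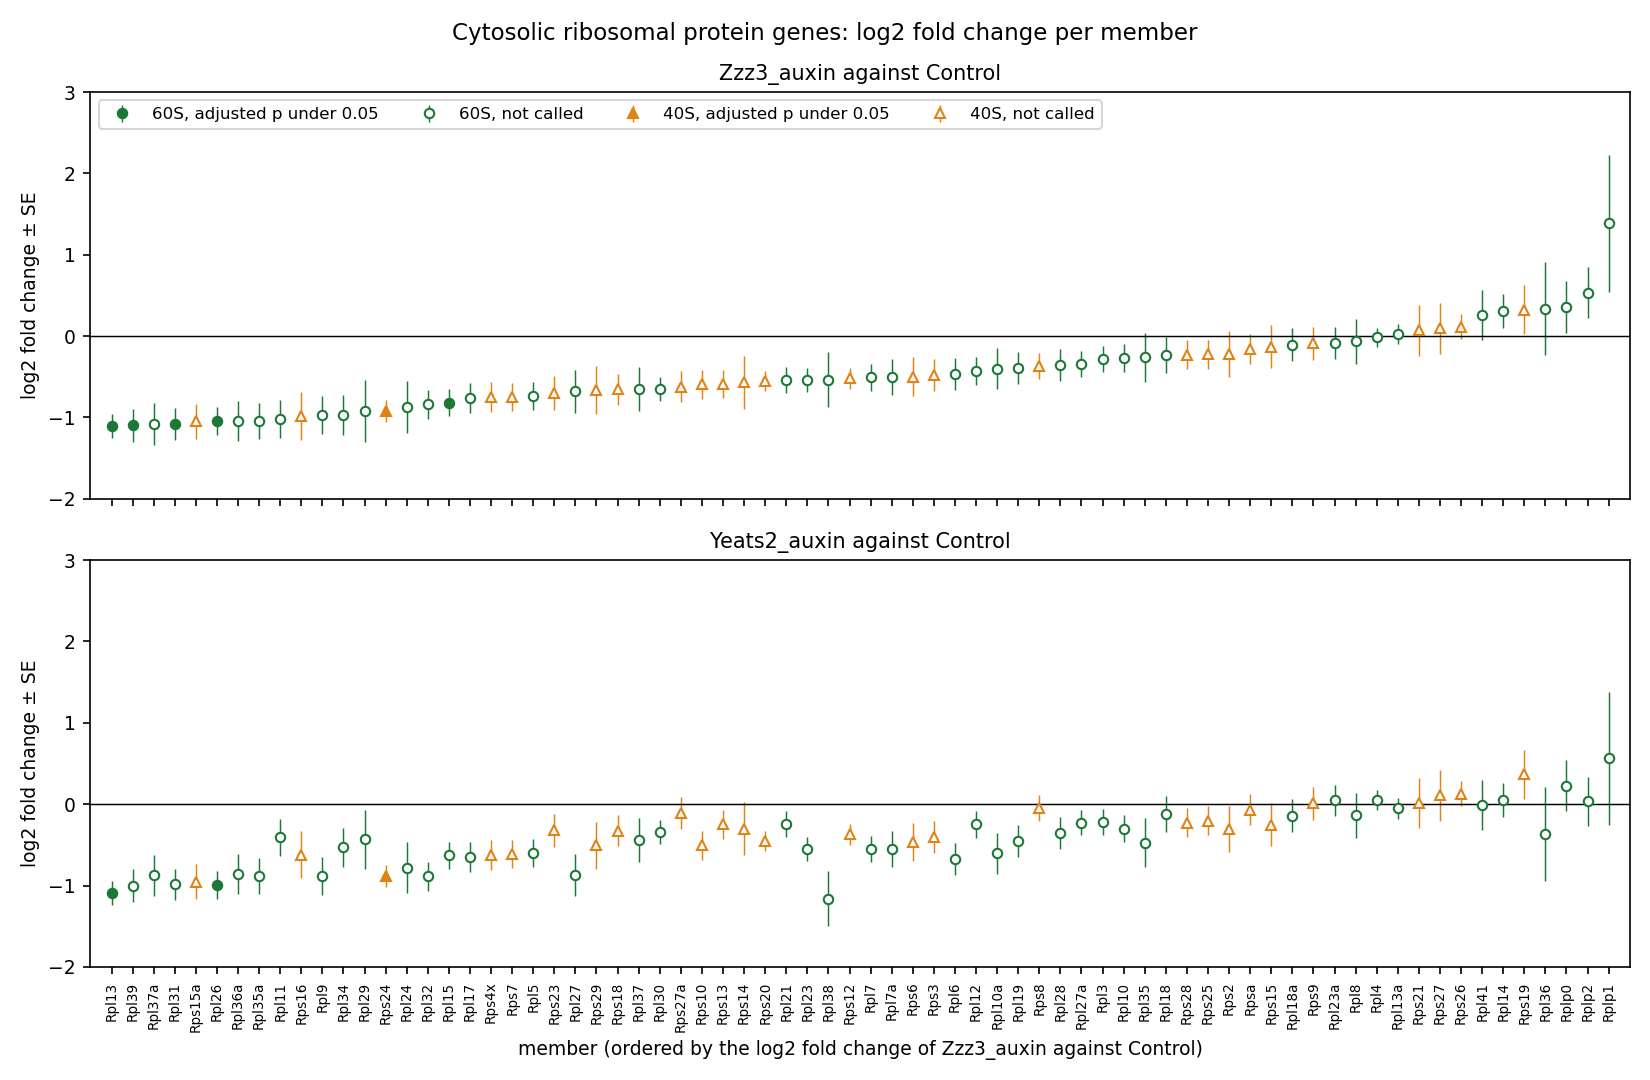
Log2 FC ± SE of 72 members in Zzz3_auxin (top) and Yeats2_auxin (bottom) against Control, in the order of the upper panel, with 60S members as green circles, 40S members as orange triangles and filled symbols for an adjusted P below 0.05 (edgeR). In the upper panel 61 of 72 symbols lie below 0 and 6 are filled, in the lower panel 61 lie below 0 and 3 are filled, and *Rplp1* at the right has the widest error.

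The 3 members called in both comparisons fell to about the same extent in each, without overlap between groups. *Rpl13* encodes a 60S protein and lies on the plus strand of chr8:123102350-123105244 (GRCm38), with 6 exons in its main transcript and the snoRNA gene *Snord68* inside it. It stood at 345 and 342 CPM in Control, 128, 185 and 165 in Zzz3_auxin and 164, 173 and 146 in Yeats2_auxin. Its log2 FC was -1.11 ± 0.15 (SE, edgeR adjusted P = 0.0183) in Zzz3_auxin and -1.09 ± 0.15 (adjusted P = 0.0204) in Yeats2_auxin. It was called in 5 of the 8 fits that left out a library for Zzz3_auxin and in 3 of 8 for Yeats2_auxin.

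*Rpl26*, a 60S protein that is also known to bind p53 mRNA, lies at chr11:68901583-68906989 on the plus strand. Its levels were 750.3 and 784 CPM in Control, 287, 407 and 420.4 in Zzz3_auxin and 379, 445 and 329 in Yeats2_auxin. The highest auxin library thus had less than either control, and the log2 FC was -1.05 ± 0.17 (edgeR adjusted P = 0.0289) in Zzz3_auxin and -0.997 ± 0.17 (adjusted P = 0.0382) in Yeats2_auxin. *Rps24*, a 40S protein needed for 18S rRNA maturation and mutated in some patients with Diamond-Blackfan anemia, lies at chr14:24487125-24496959 on the plus strand and had 1207 and 1095 CPM in Control, 516, 670.0 and 638 in Zzz3_auxin and 612, 670.2 and 588 in Yeats2_auxin. This gave -0.92 ± 0.13 (edgeR adjusted P = 0.0187) and -0.88 ± 0.13 (adjusted P = 0.0241). *Rpl26* and *Rps24* each kept their call in 3 of 8 fits without a library, in either comparison.

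Others called in Zzz3_auxin, *Rpl39*, *Rpl31* and *Rpl15*, had log2 FCs of the same sign in Yeats2_auxin that missed the threshold there. *Rpl39*, among the smallest proteins of the 60S subunit and part of the exit tunnel wall, lies at chrX:37082520-37085402 on the minus strand and had 891 and 737 CPM in Control, 261, 418 and 462 in Zzz3_auxin and 421, 428 and 372 in Yeats2_auxin. Its log2 FC was -1.10 ± 0.20 (edgeR adjusted P = 0.0396) and -1.001 ± 0.20 (adjusted P = 0.0631). *Rpl31*, a 60S protein at the rim of the exit tunnel, lies at chr1:39367842-39371911 on the plus strand and had 117 and 112 CPM in Control, 37.9, 61.8 and 63.0 in Zzz3_auxin and 56.9, 64.6 and 52.4 in Yeats2_auxin. The controls again lay above all auxin libraries, with -1.08 ± 0.19 (edgeR adjusted P = 0.0375) and -0.98 ± 0.19 (adjusted P = 0.0559).

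*Rpl15*, a 60S protein, lies at chr14:18267823-18271391 on the minus strand and had 192 and 194 CPM in Control, 82.8, 125 and 120.4 in Zzz3_auxin and 120.0, 138 and 116 in Yeats2_auxin. Its log2 FC was smaller, -0.82 ± 0.16 (edgeR adjusted P = 0.0479) in Zzz3_auxin and -0.63 ± 0.16 (adjusted P = 0.133) in Yeats2_auxin. Exons of *Rpl15* and *Rpl31* overlap *Nkiras1* and *Tbc1d8* on the opposite strand, and the sources used here do not say whether counting used strand. Without strand, reads over the shared bases would have been ambiguous and left out, so the levels of these members may lack them. These 3 members were each called in 2 of the 8 fits without a library for Zzz3_auxin.

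Other members with low log2 FCs were not called. *Rps15a*, a 40S protein whose start is shown above, had 719.8 and 707 CPM in Control, 221, 389.8 and 425 in Zzz3_auxin and 361, 405 and 339.8 in Yeats2_auxin. The groups did not overlap, and its log2 FC was -1.05 ± 0.22 (edgeR adjusted P = 0.0505) in Zzz3_auxin and -0.95 ± 0.22 (adjusted P = 0.0916) in Yeats2_auxin. *Rpl37a*, a zinc-binding 60S protein, had 132 and 174 CPM in Control, 44.9, 79.3 and 93.3 in Zzz3_auxin and 75.6, 98.3 and 76.8 in Yeats2_auxin, with -1.08 ± 0.26 and -0.88 ± 0.26 and an adjusted P above the threshold in both. *Rpl38*, a 60S protein known from the Tail short mouse for its part in translating Hox mRNAs, had the lowest log2 FC of all members in Yeats2_auxin, -1.16 ± 0.34 (edgeR adjusted P = 0.166), but rested on few reads. Its levels were 1.97 and 2.90 CPM in Control, 1.42, 2.38 and 1.14 in Zzz3_auxin and 1.122, 1.23 and 0.910 in Yeats2_auxin, and Zzz3_auxin replicate 2 lay within the range of Control.

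**Figure D2:**
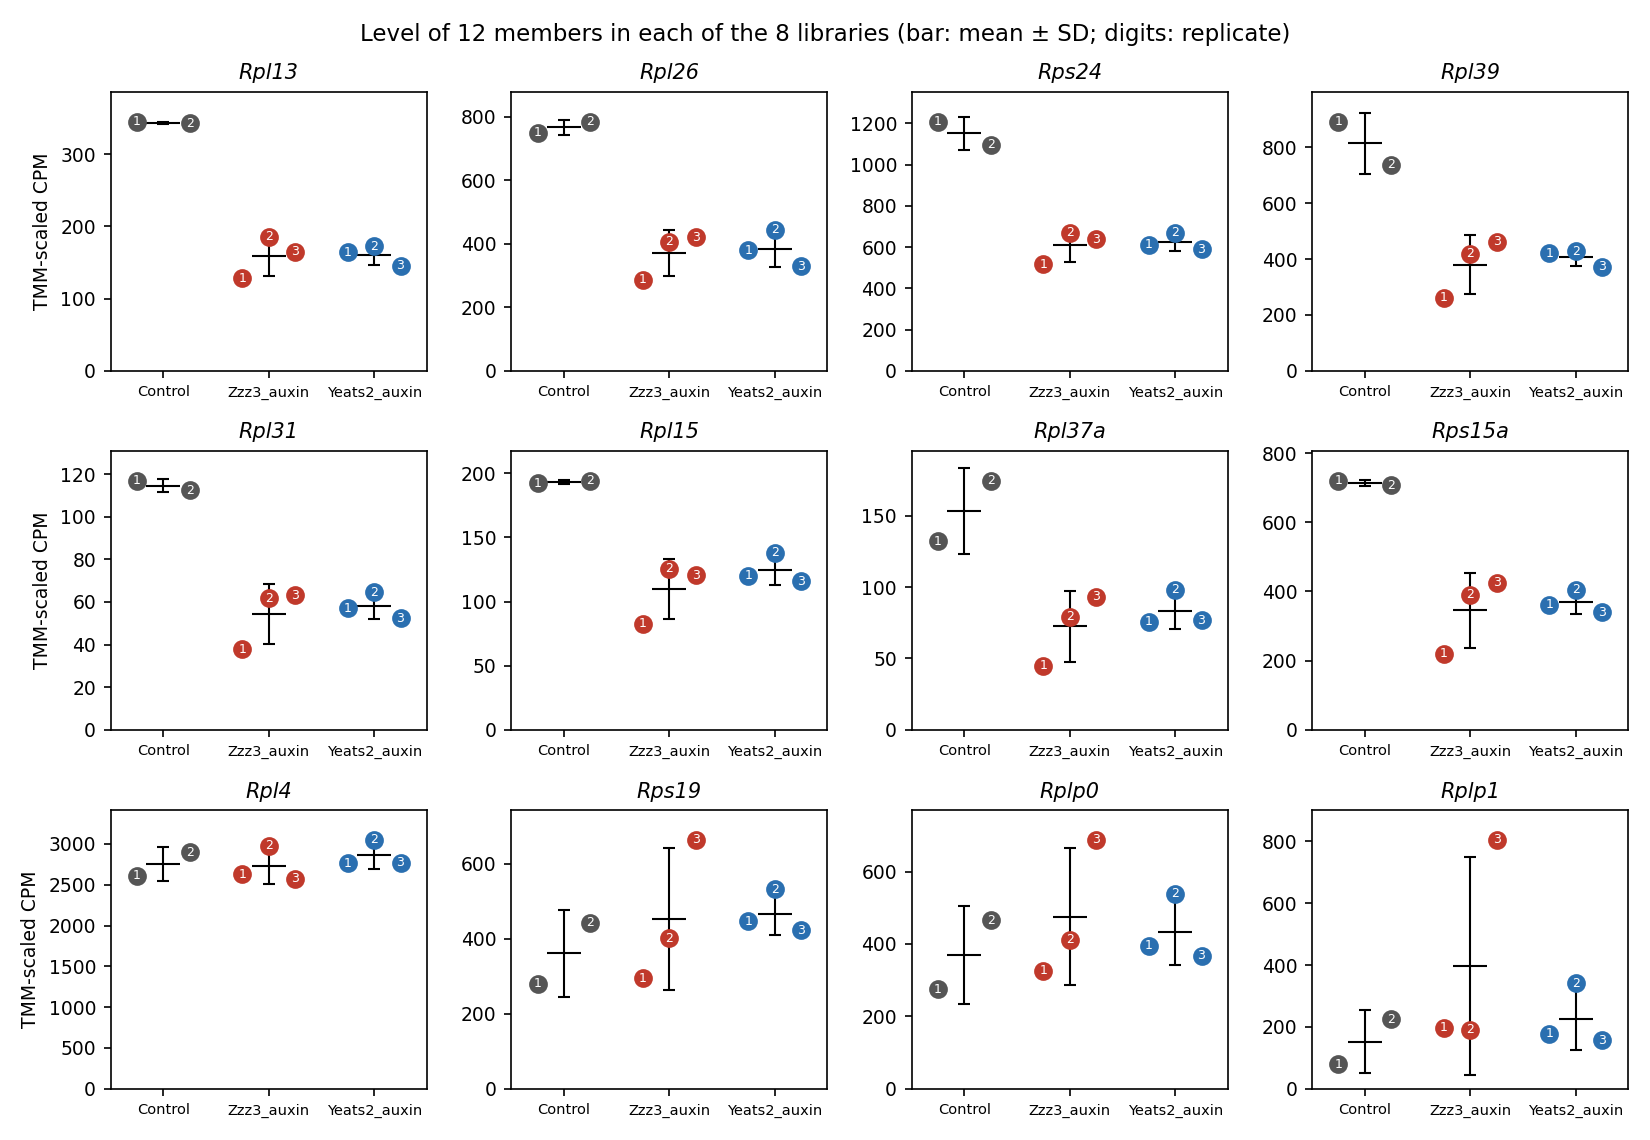
Level in TMM-scaled CPM (vertical axis, from 0) of 12 members in each library, with the replicate number in each point and the group mean ± SD as bars (n = 2 for Control, 3 for the others). In the upper 8 panels every auxin library lies below both controls, while *Rpl4* is level and *Rps19*, *Rplp0* and *Rplp1* overlap between groups, with Zzz3_auxin replicate 3 highest.

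The most counted member did not follow the family. *Rpl4*, a large 60S protein that lines the exit tunnel and whose gene at chr9:64173375-64178666 holds 5 snoRNA genes, had 2612 and 2901 CPM in Control, 2628, 2979 and 2575 in Zzz3_auxin and 2764, 3049.9 and 2771 in Yeats2_auxin. These values overlapped fully, and the log2 FC was -0.02 ± 0.12 (edgeR adjusted P = 0.959) in Zzz3_auxin and 0.05 ± 0.12 (adjusted P = 0.866) in Yeats2_auxin. Of the 13 members with a log2 FC above 0 in Zzz3_auxin, 0 were called and 0 reached an unadjusted P below 0.05, and DESeq2 called none of them either. They included *Rps26*, a 40S protein at the mRNA exit channel, at 0.12 ± 0.15 and 0.13 ± 0.15 in Zzz3_auxin and Yeats2_auxin.

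In Zzz3_auxin the stalk genes had the 3 highest log2 FCs of all members, which was not so in Yeats2_auxin. *Rplp0*, *Rplp1* and *Rplp2* encode the acidic stalk of the 60S subunit, which recruits and activates translation factors. *Rplp1*, at chr9:61913284-61914542 on the minus strand, had 79.5 and 224 CPM in Control, 197, 191 and 805 in Zzz3_auxin and 178, 341 and 157 in Yeats2_auxin. Its log2 FC was 1.39 ± 0.84 (edgeR adjusted P = 0.395) in Zzz3_auxin and 0.57 ± 0.82 (adjusted P = 0.788) in Yeats2_auxin, with an estimate between 0.36 and 2.33 in Zzz3_auxin depending on the library left out. Zzz3_auxin replicate 3 alone held several times the level of the other libraries of its group, and the controls differed from each other as well, so no change was detectable.

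*Rplp2* had 46.6 and 70.8 CPM in Control, 67.9, 62.4 and 126 in Zzz3_auxin and 52.3, 75.8 and 52.5 in Yeats2_auxin, and *Rplp0* had 275 and 465 CPM in Control, 326, 412 and 688 in Zzz3_auxin and 395, 539 and 367 in Yeats2_auxin. In both, Control replicate 1 was the lowest and Zzz3_auxin replicate 3 the highest of the 8 libraries, as for *Rplp1*. Their log2 FCs were 0.54 ± 0.31 and 0.36 ± 0.32 in Zzz3_auxin and 0.04 ± 0.30 and 0.23 ± 0.31 in Yeats2_auxin, and neither was called. *Rps19*, the member most often mutated in Diamond-Blackfan anemia, had the same lowest and highest libraries, with 279 and 443 CPM in Control, 294, 401 and 663 in Zzz3_auxin and 446, 532 and 422 in Yeats2_auxin. Its log2 FC was 0.33 ± 0.30 in Zzz3_auxin and 0.37 ± 0.30 in Yeats2_auxin, and it was not called.

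Some members were named for known roles outside or early in the ribosome. *Rpl5* and *Rpl11* form the 5S ribonucleoprotein particle, which binds Mdm2 and stabilises p53 when ribosome assembly fails. *Rpl5* had 116 and 97.8 CPM in Control, 49.3, 74.3 and 68.6 in Zzz3_auxin and 67.7, 79.9 and 63.7 in Yeats2_auxin, and its log2 FC was -0.74 ± 0.17 (edgeR adjusted P = 0.0704) and -0.60 ± 0.17 (adjusted P = 0.159). *Rpl11* had 22.4 and 21.4 CPM in Control, 7.87, 14.6 and 9.91 in Zzz3_auxin and 17.4, 18.1 and 13.97 in Yeats2_auxin, with -1.02 ± 0.23 (edgeR adjusted P = 0.0655) and -0.41 ± 0.23 (adjusted P = 0.432). Neither was called, although every auxin library lay below both controls in each.

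*Rpl3*, at the peptidyl transferase centre, had a log2 FC of -0.28 ± 0.16 in Zzz3_auxin and -0.22 ± 0.16 in Yeats2_auxin, and *Rpl10*, which joins the 60S subunit late and completes it for subunit joining, -0.27 ± 0.17 and -0.30 ± 0.17. *Rps6*, the target of S6 kinase, had -0.50 ± 0.24 and -0.47 ± 0.23, and *Rps14*, located in the region deleted in the human 5q- syndrome, -0.57 ± 0.33 and -0.30 ± 0.33. *Rpsa*, also known as a laminin receptor, had -0.16 ± 0.19 and -0.07 ± 0.19. *Rps27a*, which is made as a fusion with ubiquitin, had -0.62 ± 0.19 and -0.11 ± 0.19. None of these 6 passed an adjusted P below 0.05 in either comparison.

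The remaining members named for a high or low level were not called either. *Rpl8* and *Rps15* had log2 FCs of -0.07 ± 0.28 and -0.13 ± 0.26 in Zzz3_auxin and -0.14 ± 0.27 and -0.25 ± 0.26 in Yeats2_auxin, and *Rps3*, a 40S protein at the mRNA entry channel, -0.48 ± 0.20 and -0.40 ± 0.20. Among the weakly counted, *Rpl24*, which forms a bridge between the subunits, had -0.87 ± 0.32 and -0.78 ± 0.31, *Rpl29* -0.92 ± 0.38 and -0.43 ± 0.36, *Rpl36* 0.34 ± 0.57 and -0.37 ± 0.58, and *Rps16* -0.98 ± 0.29 and -0.62 ± 0.29.

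The subunits were set side by side. In Zzz3_auxin the median log2 FC was -0.51 for the 45 members of the 60S subunit and -0.51 for the 30 of the 40S subunit, with 38 and 24 below 0 and 5 and 2 called lower. In Yeats2_auxin it was -0.45 and -0.30, with 39 and 24 below 0, 23 and 8 lower at an unadjusted P below 0.05 and 2 and 1 called lower. The difference between the subunits was not tested. The 40S median moved with single libraries: in Yeats2_auxin it was -0.48 without Control replicate 1 and -0.18 without Control replicate 2, and in Zzz3_auxin -0.33 without replicate 1. The 60S median ranged from -0.61 to -0.39 in Zzz3_auxin and from -0.63 to -0.36 in Yeats2_auxin over the same fits. Seen by library, the median log2 ratio of the 60S members to the mean of the controls was -0.07 and 0.07 in Control, -0.82, -0.40 and -0.28 in Zzz3_auxin and -0.49, -0.33 and -0.66 in Yeats2_auxin. For the 40S members it was -0.12 and 0.12, then -0.74, -0.32 and -0.31, then -0.36, -0.10 and -0.46. Zzz3_auxin replicate 1 was thus lowest for both subunits, and the 40S median of Yeats2_auxin replicate 2 lay slightly above that of Control replicate 1. The median of all genes lay between -0.02 and 0.01 in every library.

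Replicates of a group also differed. Zzz3_auxin replicate 3 was above replicate 1 in 70 of 75 members, and Control replicate 2 above replicate 1 in 54. Of the 8 libraries, Zzz3_auxin replicate 1 was the lowest in 50 members, and Control replicate 2 was the highest in 35. The pooled SD of the library medians within groups was 0.205 on the log2 scale, for all members together.

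**Figure D3:**
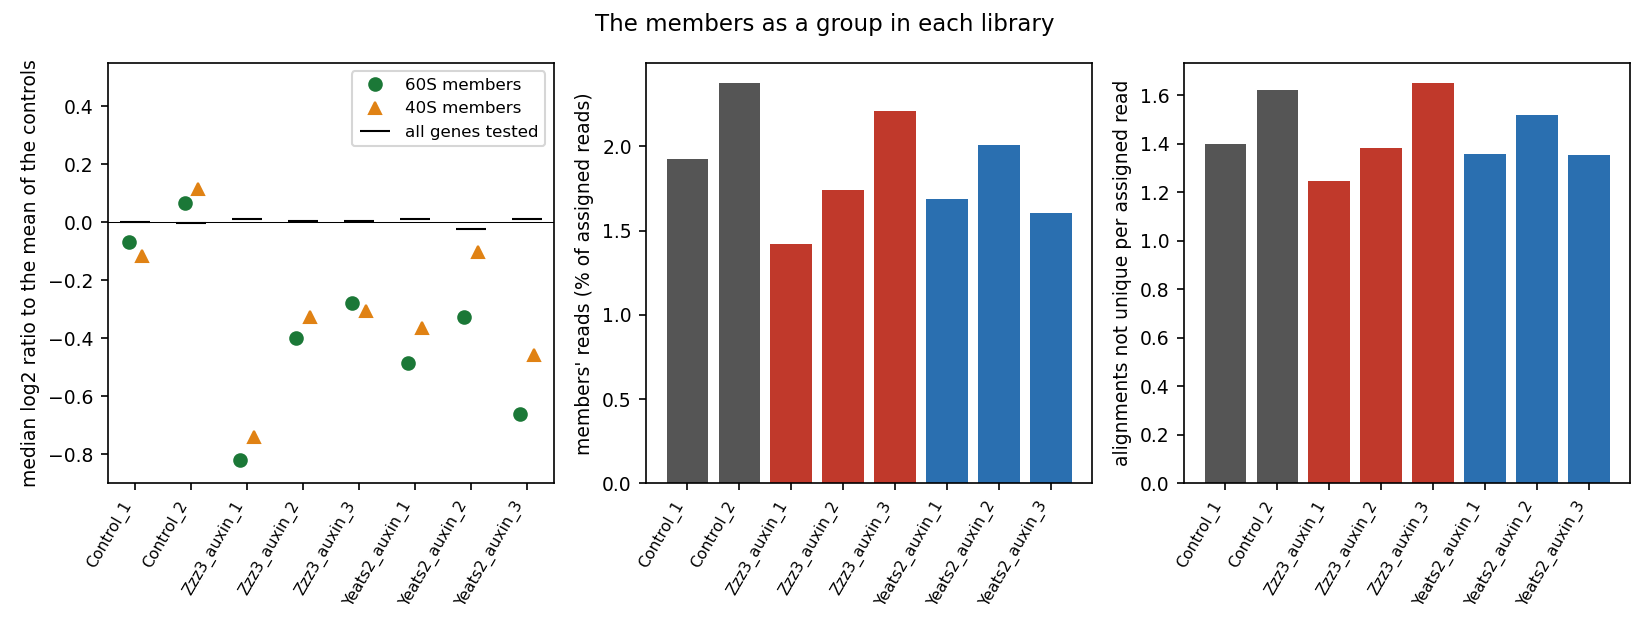
Left, median log2 ratio to the mean of the 2 controls for 60S members (green circles), 40S members (orange triangles) and all genes tested (bars) in each library; middle, reads of the members as a percentage of assigned reads; right, discarded multiple alignments per assigned read. All auxin libraries lie below 0 at left while all genes stay at 0, and the middle and right panels share nearly the same order of libraries, from Zzz3_auxin replicate 1 to Control replicate 2 and Zzz3_auxin replicate 3.

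Yeats2_auxin was set directly against Zzz3_auxin, a comparison that does not use the controls. No member was called (0 of 75, and 0.0% of all genes) by edgeR's quasi-likelihood test, and the lowest adjusted P of any member was 0.779. DESeq2 called 0 members and 3 genes. At an unadjusted P below 0.05, edgeR gave 3 members (4%) higher in Yeats2_auxin and 0 lower, against 2.44% of all genes higher. DESeq2 gave 5 of 75 members in either direction at this threshold, and 956 of all 17532 genes tested. The median of the members was 0.08, of the 60S members 0.05 and of the 40S members 0.09, against -0.01 over all genes. The sign of these medians rested on single libraries: they were -0.09, -0.12 and -0.05 without Zzz3_auxin replicate 1 and all -0.03 without Yeats2_auxin replicate 2. The 3 members higher by edgeR were *Rpl11* at 0.61 ± 0.21, *Rps27a* at 0.51 ± 0.17 and *Rpl30*, named after its values were seen, at 0.30 ± 0.13. *Gm10036*, a pseudogene copy of *Rpl11* with more reads than the gene, was at 0.34 ± 0.17. In *Rps27a* the levels were 46.2 and 38.6 CPM in Control, 27.5, 34.0 and 20.7 in Zzz3_auxin and 36.4, 44.7 and 36.7 in Yeats2_auxin. Every Yeats2_auxin library was thus above every Zzz3_auxin library there, and the Yeats2_auxin range lay close to that of Control. Such a separation in this direction held for 3 members (4%), a smaller share than the 5.25% of all genes.

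Pseudogene copies were examined because a read that aligns equally well to a copy is discarded or can be counted at the copy. A near copy was an annotated transcript of another gene with at least 90% identity over at least 50% of the member's coding sequence with 50 bases to either side. There were 1050, of which 1016 were annotated as pseudogenes, and 184 of those pseudogenes had no read in any library. In all, 73 members had a near copy and 71 a near pseudogene, and *Rpl8* was among the members without any. Of the 100-base windows along the same stretch, the share also found unchanged in a transcript of another locus was 0% in 5 members, among them *Rpl32*, *Rpl41*, *Rps21* and *Rps3*, and 100% in *Rpl12* and *Rpl5*, with a median of 58.2% over the 75. The pseudogene copies together held 5.44 and 5.74 reads per 100 reads of the members in Control, 5.49, 5.60 and 5.41 in Zzz3_auxin and 5.63, 5.43 and 5.61 in Yeats2_auxin, so this ratio overlapped between groups. The 5 most counted copies held 62.8% of these reads.

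Adding the reads of the pseudogene copies to their member moved few values. In Zzz3_auxin the log2 FC moved by more than 0.1 in 12 of 75 members, and the median of the members became -0.47. There, 7 members were called lower, 6 of them called without the copies as well, among 130 genes called in either direction. In Yeats2_auxin 5 members moved by more than 0.1, and the median became -0.38. There, 4 were called lower, including the 3 called before, among 80 genes called in either direction. The largest move was that of *Rps7*, a 40S protein that also binds Mdm2, from -0.75 to 0.14 in Zzz3_auxin and from -0.61 to -0.03 in Yeats2_auxin.

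*Rps7* itself had 26.3 and 24.1 CPM in Control, 12.1, 16.5 and 16.5 in Zzz3_auxin and 16.01, 18.7 and 14.8 in Yeats2_auxin, and its near copy *Gm6472* had 23.1 and 53.9 CPM in Control, 36.6, 39.8 and 88.1 in Zzz3_auxin and 39.3, 59.99 and 39.6 in Yeats2_auxin. The gene was lower in every auxin library, whereas its copy was lowest in Control replicate 1 and highest in Zzz3_auxin replicate 3. *Rplp1* and its copy *Gm11942* shared that order of extremes for the highest library, the copy having 20.3 and 28.3 CPM in Control, 21.1, 22.9 and 84.7 in Zzz3_auxin and 19.3, 36.8 and 16.6 in Yeats2_auxin. Reads at these annotated copies may come from the parent gene, and the counts do not separate the sources.

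In Zzz3_auxin, where 0.257% of all genes were called lower, 4 of 125 pseudogene copies with enough reads to test were called lower and 0 higher. They were *Rpl31-ps8* at -1.22 ± 0.17 (edgeR adjusted P = 0.0187), *Gm10036*, a copy of *Rpl11*, at -0.97 ± 0.19, *Gm10275*, a copy of *Rpl12*, at -0.86 ± 0.17 and *Rps13-ps1* at -0.85 ± 0.16. *Rpl31-ps8* alone was called in Yeats2_auxin, where 0.114% of all genes were called lower, at -1.29 ± 0.17 (edgeR adjusted P = 0.0204). Its parent *Rpl31* was the member called in Zzz3_auxin that is described above. The median of the 125 copies was 0.00 in Zzz3_auxin and -0.18 in Yeats2_auxin, nearer to 0 than that of the members. Many of these copies rested on few reads. *Gm10036* had 353 and 466 CPM in Control, 163, 264 and 199 in Zzz3_auxin and 259.9, 299 and 235 in Yeats2_auxin, more than 10 times the level of *Rpl11* in every library.

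**Figure D4:**
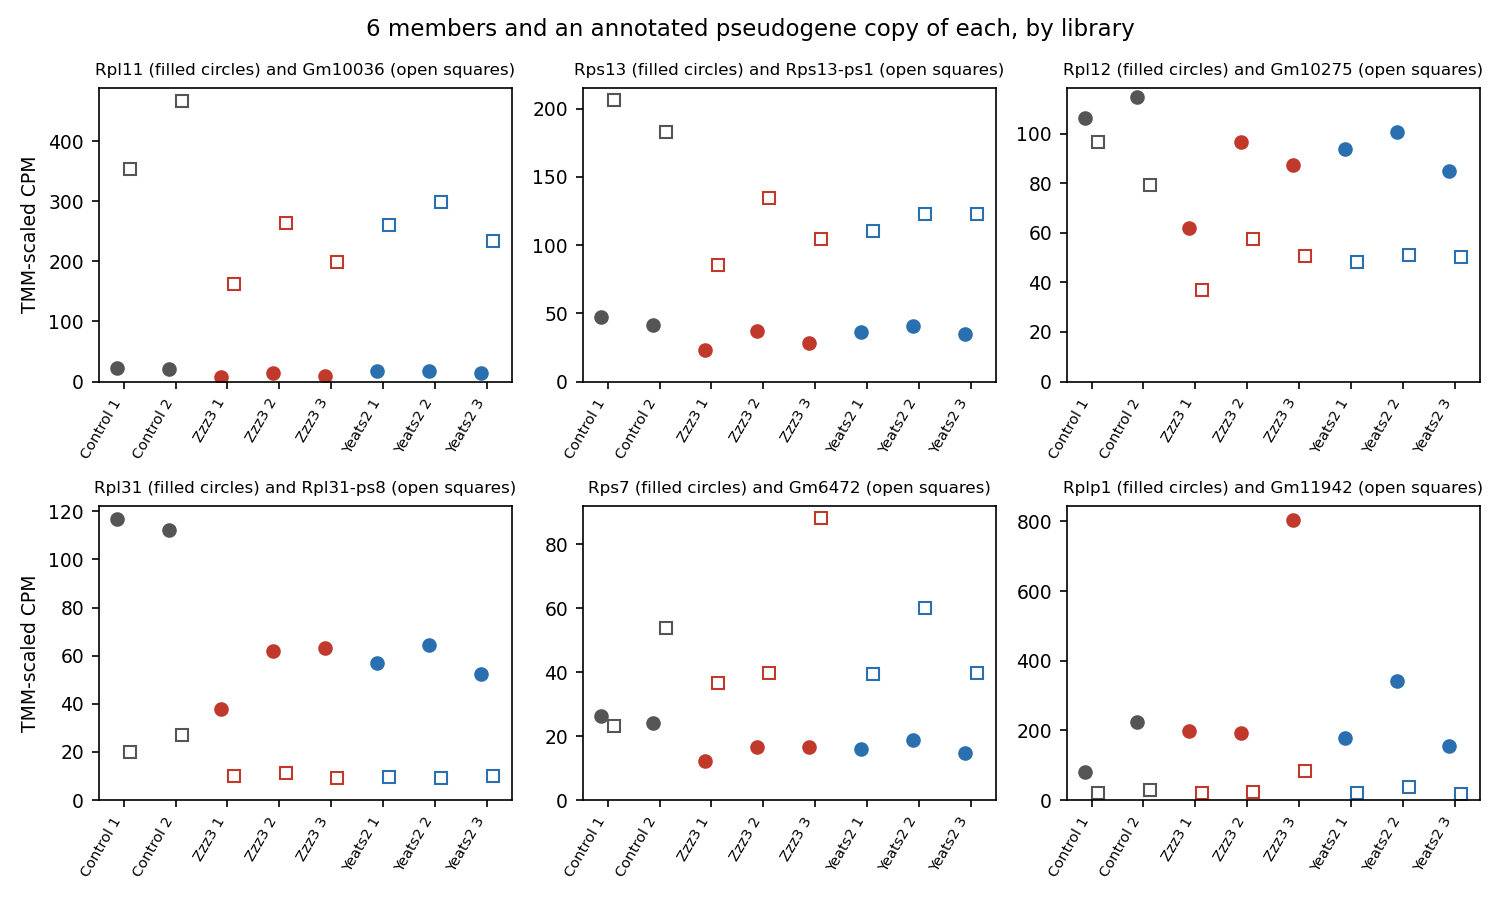
Level in TMM-scaled CPM (vertical axes, from 0) of 6 members (filled circles) and a pseudogene copy of each (open squares) in the 8 libraries, coloured by group. The copies of *Rpl11* and *Rps13* carry more reads than the gene, *Rpl31* and its copy are both lower in all auxin libraries, and the copy of *Rps7* is highest in Zzz3_auxin replicate 3 while *Rps7* is lower in all auxin libraries.

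The members' log2 FCs also differed with how much sequence they share with other genes. The 10 members with under 10% of windows shared had a median log2 FC of 0.01 in Zzz3_auxin and -0.09 in Yeats2_auxin and a median level of 360 CPM per kb (*Rpl13a*, *Rpl32*, *Rpl39*, *Rpl4*, *Rpl41*, *Rpl8*, *Rps21* and *Rps3* among them). The 44 members with 10 to 80% shared had -0.52 and -0.44 at 44.6 CPM per kb, and the 21 with 80% or more had -0.62 and -0.41 at 14.1 CPM per kb. *Rpl39* was among the least shared by this measure and was called lower, but it had 17 near copies, 16 of them pseudogenes. The part of copies in its log2 FC was not tested. Over the 75 members, Pearson's r between the shared fraction and the log2 level per kb was -0.69 (Spearman's rho -0.66), and between the shared fraction and the log2 FC in Zzz3_auxin it was -0.31 (rho -0.28). Members share libraries and controls, so these are descriptions.

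The change also varied with base composition. The 25 members lowest in GC, up to 50%, had a median log2 FC of -0.65 in Zzz3_auxin and -0.47 in Yeats2_auxin, the middle 25 had -0.59 and -0.51, and the 25 highest, from 54.1%, had -0.23 and -0.25. Over the members, r between GC content and log2 FC was 0.42 in Zzz3_auxin (rho 0.41) and 0.30 in Yeats2_auxin (rho 0.31), and between GC content and the log2 ratio of Control replicate 2 to replicate 1 it was 0.54 (rho 0.52). GC-rich members thus differed between the controls themselves. After removing, library by library, the dependence of all genes on GC content and exon length, r was 0.22 in Zzz3_auxin and 0.13 in Yeats2_auxin. With this correction 11 and 4 members were called lower, among 178 and 132 genes called in either direction, and the medians were -0.47 and -0.44. The 29 members with snoRNA genes inside them had medians of -0.48 and -0.30, and the other 46 had -0.55 and -0.44.

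**Figure D5:**
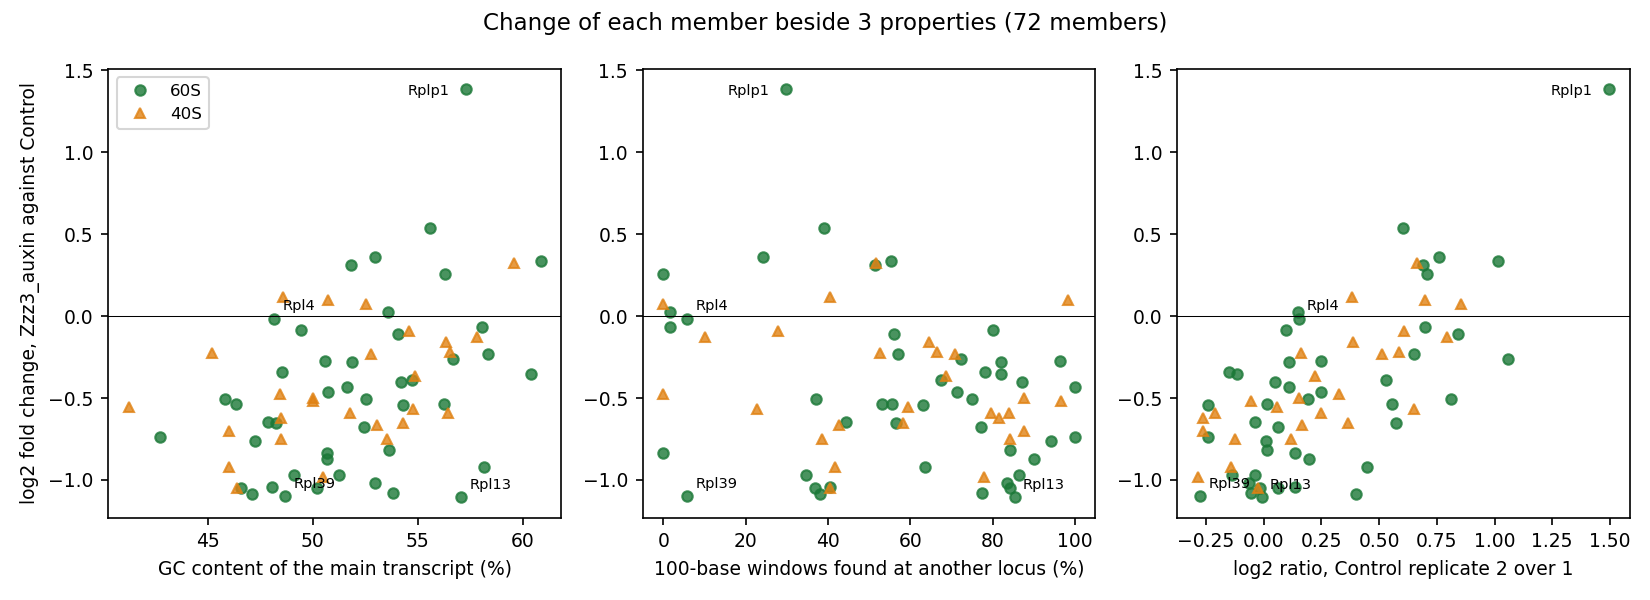
Log2 FC of Zzz3_auxin against Control (vertical axis) of 72 members, 60S as green circles and 40S as orange triangles, against GC content of the main transcript (left), the percentage of 100-base windows of its coding region found at another locus (middle) and the log2 ratio between the 2 controls (right). Points rise to the right in the left and right panels, with *Rplp1* at the top and *Rpl13* as a GC-rich member near the bottom, and the controls enter both axes at right.

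Other genes of the ribosome pathway were counted from lists chosen by function. The 5 cytosolic RP genes that the symbol rule leaves out had 0 calls in either comparison with Control, and medians of -0.19 in Zzz3_auxin and -0.14 in Yeats2_auxin. Among 9 paralogs of RP genes, *Rpl22l1* was called lower in both, with 106 and 111 CPM in Control, 28.1, 47.6 and 46.9 in Zzz3_auxin and 44.3, 49.1 and 39.8 in Yeats2_auxin, a log2 FC of -1.41 ± 0.20 (edgeR adjusted P = 0.0187) in Zzz3_auxin and -1.29 ± 0.20 (adjusted P = 0.0241) in Yeats2_auxin, and the list had medians of -0.51 and -0.48. Another 16 TOP mRNAs, among them those of translation factors and RNA-binding proteins, had 0 calls, with medians of -0.26 and -0.12 and 10 and 11 below 0. The 14 regulators of TOP mRNAs had medians of 0.16 and 0.02, the 15 genes of rRNA synthesis and ribosome assembly -0.04 and 0.07, and both lists 0 calls in either comparison. Medians in the direct comparison lay between -0.06 and 0.15 for these 5 lists, with 0 calls.

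Markers of other cells or states had no gene called in any comparison, and no marker was at 0 in every library. Of these markers, *Sox17*, *Afp*, *Col1a1*, *Col3a1*, *Usp17la* and *Elf5* had too few reads to be tested, so they could not be called. Summed CPM ranged from 41.3 to 43.1 in Control, 49.1 to 72.0 in Zzz3_auxin and 45.1 to 50.4 in Yeats2_auxin for 4 neuroectoderm markers, and from 15.8 to 17.9, 14.5 to 22.8 and 12.2 to 15.0 for 4 mesendoderm markers. For 4 endoderm markers the ranges were 1.13 to 1.59, 1.00 to 1.94 and 0.95 to 1.30, and for 5 fibroblast feeder markers 7.06 to 9.84, 7.40 to 12.4 and 7.42 to 9.97. The 3 trophoblast markers gave 8.14 to 10.9, 6.45 to 10.9 and 6.19 to 14.2. The 3 markers of the 2-cell-like state gave 1.32 to 1.73, 2.61 to 12.5 and 1.19 to 2.497, with the highest value in Zzz3_auxin replicate 1, the library in which most members were lowest. The part of such cells in the members' levels was not tested.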

How the data were processed

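Total RNA-seq of 8 libraries was analysed. The deposited values are raw counts per gene: the authors took trimmed reads without ribosomal RNA matches, placed them on mm10 using STAR and gave unique, unambiguous ones to genes with HTSeq in union mode (submitters' processing notes: STAR 2.5.3a, HTSeq 0.6.1p1). A stranded kit was used, but whether counting used strand is not given in the sources used here. The labels give poly(A) RNA as molecule, and the protocol ribosomal RNA depletion.

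The 5 tallies of unassigned reads in each file were dropped. GENCODE annotation of GRCm38, identical to mm10, matched 55141 of 55401 genes. filterByExpr left 17532 genes, libraries were scaled by TMM, and edgeR 4.0.16 (R 4.3.3, limma 3.58.1) fitted all 8 libraries with a mean per group by its robust quasi-likelihood test. Two-sided P values received the Benjamini-Hochberg adjustment over all genes tested, in each of 3 comparisons separately, with calls at an adjusted P below 0.05. An SE is the log2 FC divided by the square root of F. CPM are TMM-scaled. Per-kb levels use merged exon length. Copies were found with BLAST+ 2.17.0 among annotated transcripts only. Tables and plots used Python 3.11.15, pandas 2.3.3, numpy 2.4.6 and matplotlib 3.10.9. On simulated counts with 200 changed genes of 17532, edgeR recovered 90.5% in Zzz3_auxin against Control and 93.0% in Yeats2_auxin against Control. In Yeats2_auxin against Zzz3_auxin it recovered 98.0%. Of the calls, 7.65%, 7.46% and 6.22% were false, in the same order. The planted log2 changes were all larger in size than the log2 FC of any member. These rates therefore do not give the recovery of changes as small as those of the members.

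Members, lists, tests and alternatives were chosen with earlier results of these data known. Named members were those called, the 5 highest and 5 lowest log2 FCs against Control, the 3 highest and 3 lowest levels per kb of each subunit, and 12 chosen for their role. Members named beyond this rule were chosen after their values were seen. Some members that met the rule are not reported here by name, though all 75 enter the counts and medians. Alternatives were DESeq2 1.42.0, DESeq2 size factors, no filter, protein-coding genes only, only the groups compared, the replicate number as a block, a correction for GC content and exon length, copies' reads added, and each library left out.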

Additional observations from a re-analysis of the deposited data

How the results depend on the processing

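No alternative turned the direction of a called result, and in no setting was a member called higher in either comparison with Control. The number of members called lower, 7 in Zzz3_auxin and 3 in Yeats2_auxin, depended on the setting. It was 30 and 13 with DESeq2 (among 1079 and 398 genes called in either direction), 34 and 21 with no filter (1542 and 553), 0 and 20 with only the groups compared (0 and 454) and 11 and 4 with the correction for GC content and exon length (178 and 132), where all libraries in edgeR gave 132 and 78 genes. With the replicate number as a block it was 4 and 3 (42 and 32). Leaving out each library in turn gave 0 to 25 in Zzz3_auxin (0 to 841 genes) and 0 to 11 in Yeats2_auxin (0 to 217). The cause of these differences was not tested. The direct comparison had 0 calls among members in every setting. The median of the members stayed between -0.57 and -0.37 in Zzz3_auxin and between -0.50 and -0.30 in Yeats2_auxin when a library was left out, and between -0.53 and -0.47 and between -0.44 and -0.35 in the other settings. For the 31 members that met the naming rule, 1488 values were compared over 3 comparisons and 16 alternatives. Of these values, 66 lost a call, 45 gained it, and 73 turned sign while not called. Only the 7 calls in Zzz3_auxin and the 3 in Yeats2_auxin could be lost in each alternative, so the 66 should not be read as a share of 1488. Whether the replicate numbers pair the libraries could not be settled. Deviations of same-numbered libraries from their group means correlated from -0.34 to 0.31 over genes, and those of differently numbered libraries from -0.37 to 0.37. The deviations of the 2 controls mirror each other by construction, so such correlations cannot show that pairing is absent. In the direct comparison the median ranged from -0.09 to 0.15 when a library was left out. Counts were lowest for *Rpl36*, *Rpl38* and *Rpl29*.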
